A study of Homo sapiens with 6 samples.

Results

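The genes described here make, carry or sense lactate. 4 encode lactate dehydrogenases (LDHA, LDHB, LDHC and LDHD), 3 encode proton-coupled monocarboxylate transporters (SLC16A1, SLC16A3 and SLC16A7, known as MCT1, MCT4 and MCT2), 2 encode the membrane chaperones of these transporters (BSG and EMB) and 1 encodes the lactate receptor (HCAR1). They were chosen by gene name, and all 10 were found among the 31368 genes of the deposited expression table. RNA was measured in CAL27, a human cell line from a squamous carcinoma of the tongue. The lactate group was kept in 10 mM lactate for 24 h (3 libraries), and the reference was untreated cells of the same line (3 libraries). Neither the form of lactate (acid or salt, L or D) nor the medium's pH is stated in the labels. They also do not say whether replicates came from separate cultures, so each p-value reflects the spread among these libraries alone, which may be technical. CAL27 is a single line, so no spread between tumours is sampled.

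Lactate dehydrogenase is a tetramer that interconverts pyruvate and lactate with NADH and NAD+. The LDHA subunit is the main form in glycolytic cells and tumours, LDHB that of heart and other oxidative tissue, and LDHC that of the testis. LDHD is a separate mitochondrial flavoenzyme that oxidises D-lactate. Monocarboxylate transporters move lactate together with a proton down its gradient, in either direction. MCT1 is widespread, MCT4 is known as an exporter of highly glycolytic cells, and MCT2 has a high affinity for pyruvate and lactate. MCT1 and MCT4 need basigin (BSG) to reach the plasma membrane, and MCT2 prefers embigin (EMB). LDHA and SLC16A3 are textbook targets of the hypoxia-inducible factors, which bind a short DNA core, and MYC binds the related E-box. The 30-base stretches below show where these cores lie in the promoters of 3 of the genes, in capitals (ACGTG on either strand; the E-box CACGTG contains it on both strands and so counts as 2 matches), 5′ to 3′ on the plus strand. They come from RefSeq on GRCh38.p14:
LDHA (chr11:18394365-18394394): tagactcccagcgCACGTGgagcagtctgc
LDHA (chr11:18394470-18394499): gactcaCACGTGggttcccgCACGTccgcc
SLC16A3 (chr17:82228967-82228996): ggcggtgACGTGcgcgggggACGTGccgcg
BSG (chr19:572390-572419): agcaacgccgggtCACGTGcgccgccgccc

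The first LDHA stretch spans bases -198 to -169 from 1 of 2 annotated starts, at 18394563, and the second spans -93 to -64. Of the 250 bases before that start, 175 lie in annotated exons, since LDHA begins at 18394388 in the gene annotation used for coordinates. The second stretch thus lies inside the annotated gene, and the first straddles its beginning. The SLC16A3 stretch spans -75 to -46 from one of its 5 annotated starts, and the BSG stretch -206 to -177 from one of its 2. In the 250 bases before these starts LDHA had 5 matches to ACGTG and 2 to CACGTG (0 of either before its other start), SLC16A3 had 2 and 0, and BSG had 2 and 1. The windows before the other starts of SLC16A3 and BSG had 0 of either, as had those of LDHB and SLC16A7. LDHC had 1 match to ACGTG. In all, 4 of 13 windows held an ACGTG, and the stretches shown were picked for their matches. Promoter windows were at hand for 6 of the 10 genes. Of 35116 windows of 250 bases before annotated starts of all genes, 18.5% held at least 1 ACGTG, 7.52% at least 2 matches and 6.34% a CACGTG. A match is a run of letters, and no binding was measured in these data.

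After 24 h in lactate EMB, BSG and LDHB differed from untreated cells in the test, which called 3 of the 6 genes tested and 58.6% of all genes. None of the 3 calls held after a correction for GC content and gene length, and those of BSG and LDHB were also lost after quantile normalization and with libraries scaled to their read totals. EMB was higher, at 11.5 ± 0.383 FPKM in lactate and 9.76 ± 0.293 FPKM in untreated cells, a rise of 17.8%. BSG was lower, at 149 ± 2.79 FPKM in lactate and 161 ± 4.70 FPKM in untreated cells, and so was LDHB, at 24.2 ± 0.347 FPKM in lactate and 25.8 ± 0.343 FPKM in untreated cells (SD, n = 3 each). LDHA, SLC16A1 and SLC16A3 did not pass the test. LDHC, LDHD, SLC16A7 and HCAR1 stayed under 1 FPKM in every library and were not tested in the main comparison. In bulk RNA, fewer cells of a kind and less RNA per cell cannot be told apart.

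The comparison asks whether added lactate changed the transcripts of its own metabolism. FPKM is a fragment count divided by gene length and by a denominator for the library. In these data the denominators were not the totals of recovered reads, as given below, and how they were set is not stated. limma was run on log2(FPKM + 1) values of the 11792 genes that reached 1 FPKM in 3 or more of the 6 libraries, with Benjamini-Hochberg adjustment over all of them and a threshold of 0.05. By this test 1 of the 6 tested genes was higher, where 27.7% of all tested genes were, and 2 were lower, where 30.9% were. In either direction 3 of 6 were called, against 58.6% of all tested genes. These counts lie near the shares over all genes. The median log2 fold change of the 6 genes was -0.039, against -0.016 over all genes tested. The median absolute log2 fold change over all tested genes was 0.16. EMB exceeded it (larger than 66.1% of genes) and the other 5 did not (larger than 9.18% to 34.2% of genes). Groups did not overlap for EMB, as for 31.4% of all tested genes with lactate higher, nor for BSG and LDHB, as for 34.2% with lactate lower (65.5% in all).

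The same model was run with other treatments of the values, and the share of all genes called serves as background for each. Called higher and lower were 28.4% and 27.2% after quantile normalization, 35.3% and 21.9% with libraries scaled to their read totals, and 22.9% and 25.7% after a correction for GC content and gene length (22.6% and 25.7% with the replicate number as a block). The share called lower was 34.4% after median centring, 32.8% in voom and 32.1% with the block.

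**Figure D1:**
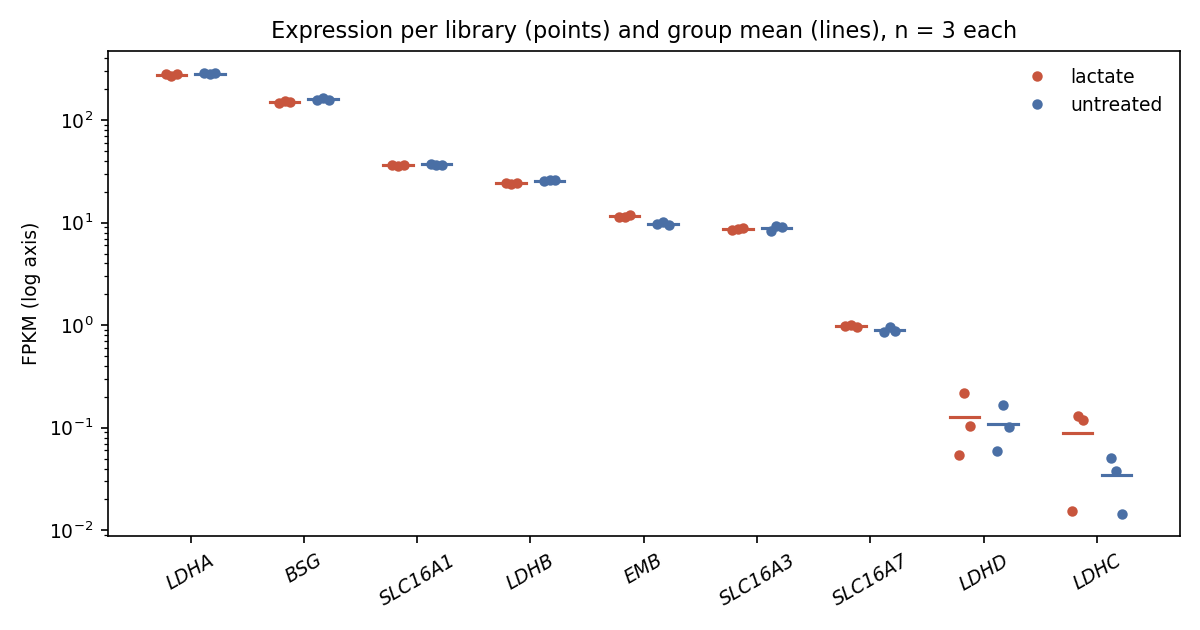
FPKM (log axis) of 9 of the 10 genes in each library, ordered by their level in untreated cells; points are libraries and lines group means (n = 3 each), with lactate left of untreated. HCAR1 is left out because 4 of its 6 values are 0. Levels run from LDHA at 271 FPKM or more to LDHC below 0.14 FPKM, and the groups lie close together in the 7 most abundant genes.

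Libraries held 30680005 to 39512808 reads in lactate and 25896650 to 34318977 in untreated cells, as recovered from the FPKM values. These totals came to 98.5% ± 0.578 of the denominators behind the FPKM values in lactate and 103% ± 0.629 in untreated cells (SD, n = 3 each; exact two-sided permutation p = 0.1, the smallest that 3 against 3 allows). The log2 ratio of these percentages, lactate over untreated, was -0.070, a larger size than the log2 fold changes of LDHA, SLC16A1 and SLC16A3 given below. Log2 values correlated across genes at a Pearson r of 0.996 to 0.997 within groups and 0.989 to 0.991 between groups. The 9 squamous epithelial markers summed to 1059 to 1081 FPKM in lactate and 1051 to 1068 FPKM in untreated libraries. Those of fibroblasts (6), leukocytes (5) and endothelium (4) summed to at most 1.79 FPKM in any library, with DCN, PTPRC and KDR at 0 or not listed.

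LDHA (ENSG00000134333, chr11:18394388-18408425 on GRCh38, plus strand) was the most abundant of the 10 transcripts and ranked 182 of 31368 genes by mean FPKM. It stood at 279, 271 and 279 FPKM in lactate replicates 1 to 3, against 289, 279 and 286 FPKM in untreated replicates 1 to 3. The ranges overlap, and lactate replicate 2 was the lowest of all 6 libraries. These values rest on 52213 to 67843 reads per lactate library and 42349 to 57577 per untreated library. The log2 fold change was -0.042 (SE 0.020, limma adjusted p = 0.118), with a 95% confidence interval of -0.089 to 0.0063. The sign depended on the scaling. With libraries scaled to their read totals it was 0.028 (limma adjusted p = 0.220), after quantile normalization 0.14 (limma adjusted p = 0.000533), and after correction of each library for GC content and gene length -0.13 (limma adjusted p = 0.000340). LDHA was also called lower after median centring (-0.063, limma adjusted p = 0.0342), in voom on recovered reads (limma adjusted p = 0.0131) and with the replicate number as a block (limma adjusted p = 0.0150). The direction for LDHA therefore differed between scalings, with calls in both directions.

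LDHB (ENSG00000111716, chr12:21635342-21757857, minus strand) was the fourth most abundant of the 10, below LDHA, BSG and SLC16A1. It had 24.4, 23.8 and 24.4 FPKM in lactate replicates 1 to 3, against 25.4, 25.8 and 26.1 FPKM in untreated replicates 1 to 3. All 3 lactate libraries lay below all 3 untreated libraries. The log2 fold change was -0.088 (SE 0.023, limma adjusted p = 0.0129), a difference of -6.14%. It did not pass with read totals (log2 fold change -0.021, limma adjusted p = 0.487), after quantile normalization (-0.024, limma adjusted p = 0.421) or after the GC and length correction (-0.048, limma adjusted p = 0.0960). Its exons share 997 of 2983 nt with AC010197.2 on the same strand, which was listed at 0.00964 FPKM or less in every library. How reads of the shared part were counted is not stated, and the effect on the LDHB level was not tested.

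The share of LDHA in the summed FPKM of LDHA and LDHB is free of any factor that scales a whole library. It was 92.0%, 91.9% and 92.0% in lactate replicates 1 to 3, against 91.9%, 91.5% and 91.6% in untreated replicates 1 to 3. The means were 91.96% ± 0.0172 in lactate and 91.70% ± 0.203 in untreated cells, a difference of 0.260 percentage points (SD, n = 3 each; exact two-sided permutation p = 0.1, the smallest possible). The lactate libraries all lay above the untreated ones, by less than the range of the untreated libraries. After the GC and length correction the difference was -0.402 percentage points, with the groups again not overlapping (exact two-sided permutation p = 0.1, n = 3 each). LDHA made up 91.5% or more of this pair in all 6 libraries.

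LDHC (ENSG00000166796, chr11:18412307-18452058) and LDHD (ENSG00000166816, chr16:75111860-75116771) were near the detection limit. LDHC lies next to LDHA on chromosome 11. It had 1, 9 and 10 reads in lactate replicates 1 to 3, against 3, 2 and 1 reads in untreated replicates 1 to 3. Summed over libraries that is 0.0920 FPKM in lactate (95% exact Poisson interval 0.0562 to 0.142) and 0.0331 FPKM in untreated cells (0.0122 to 0.0721), intervals that cover counting error only. Lactate replicate 1 lay within the untreated range and the other lactate libraries above it (exact two-sided permutation p = 0.3 on FPKM, n = 3 each). LDHD had 4, 17 and 10 reads in lactate, against 4, 10 and 8 in untreated cells, and the groups overlapped (exact two-sided permutation p = 0.8, n = 3 each). No difference beyond the spread between libraries was seen in LDHC or LDHD. At 1 to 17 reads per library this does not exclude one.

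SLC16A1 (ENSG00000155380, chr1:112911847-112957013, minus strand), which encodes MCT1, was the most abundant of the 3 transporters. It had 36.8, 35.5 and 36.5 FPKM in lactate replicates 1 to 3, against 37.6, 36.6 and 36.8 FPKM in untreated replicates 1 to 3. The groups overlapped, and the log2 fold change was -0.028 (SE 0.023, limma adjusted p = 0.324; 95% confidence interval -0.082 to 0.026). As for LDHA the sign turned with the scaling: 0.040 with read totals (limma adjusted p = 0.136), 0.066 after quantile normalization (limma adjusted p = 0.0347) and -0.11 after the GC and length correction (limma adjusted p = 0.00187). Its exons overlap the antisense transcript SLC16A1-AS1 by 175 nt. That transcript stood at 1.24, 1.02 and 1.06 FPKM in lactate, against 1.17, 1.14 and 1.12 FPKM in untreated cells. Its part in the SLC16A1 reads was not tested.

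SLC16A3 (ENSG00000141526, chr17:82228397-82261129, plus strand), which encodes MCT4, stood at 8.47, 8.60 and 8.90 FPKM in lactate replicates 1 to 3, against 8.37, 9.31 and 9.05 FPKM in untreated replicates 1 to 3. All lactate values lie inside the untreated range. The log2 fold change was -0.036 (SE 0.042, limma adjusted p = 0.479) with a 95% confidence interval of -0.13 to 0.061. It passed under none of the 5 scalings, and its sign turned to 0.027 with read totals. On the opposite strand its exons overlap those of CSNK1D by 482 of 8995 nt. CSNK1D stood at 6.97 to 7.08 FPKM in lactate and 7.65 to 7.83 FPKM in untreated libraries, and without strand in the counting the reads of the shared part cannot be assigned.

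Within the pair, SLC16A3 made up 18.7%, 19.5% and 19.6% of the summed FPKM of SLC16A1 and SLC16A3 in lactate, against 18.2%, 20.3% and 19.7% in untreated cells. The difference of -0.136 percentage points was smaller than the spread between replicates (exact two-sided permutation p = 0.8, n = 3 each). After the GC and length correction it was 1.07 percentage points (exact two-sided permutation p = 0.1, n = 3 each).

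SLC16A7 (ENSG00000118596, chr12:59596067-59789855), which encodes MCT2, stayed below 1 FPKM but is a long transcript, so its values rest on 415 to 530 reads per lactate library and 330 to 402 per untreated library. It had 0.978, 0.994 and 0.962 FPKM in lactate replicates 1 to 3, against 0.862, 0.957 and 0.881 FPKM in untreated replicates 1 to 3. All lactate libraries lay above all untreated ones, with means of 0.978 ± 0.0162 FPKM in lactate and 0.900 ± 0.0504 FPKM in untreated cells (SD, n = 3 each). Among 5461 genes that likewise missed the FPKM minimum but had at least 10 reads in 3 libraries, 19% had lactate libraries all above the untreated ones. In voom on the recovered reads of all genes with at least 10 reads in 3 libraries, a choice made after seeing the data, its log2 fold change was 0.12 (limma adjusted p = 0.164), which does not pass, where 24.5% of these genes were called higher.

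**Figure D2:**
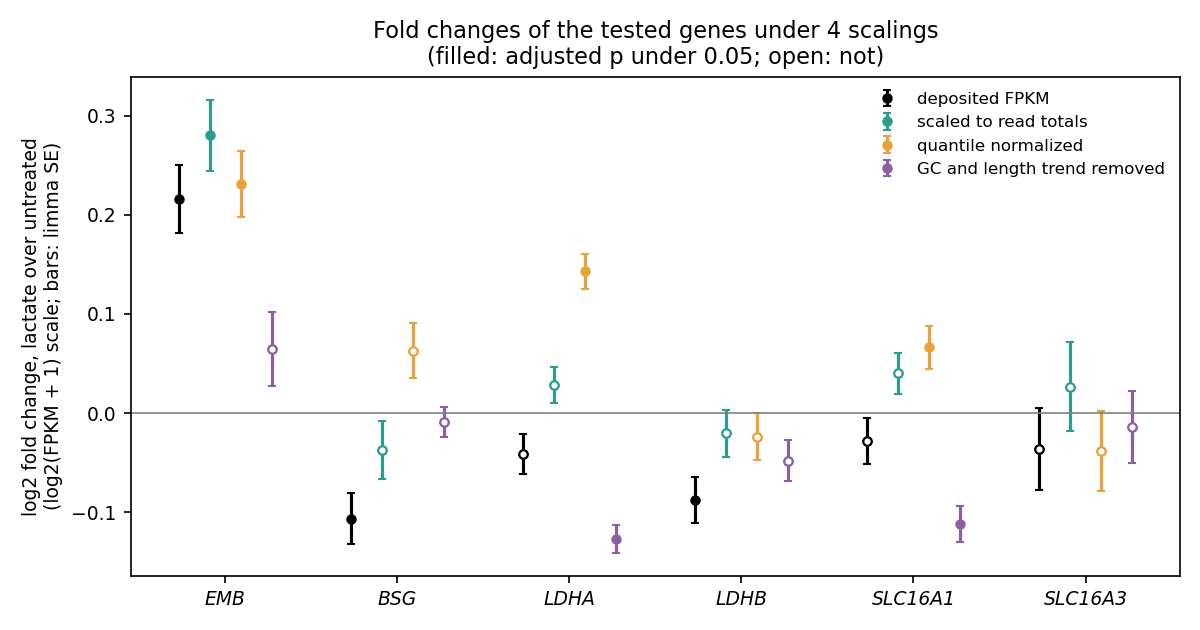
Fold changes (lactate over untreated, log2(FPKM + 1) scale) of the 6 tested genes, with the limma SE as bars, for the deposited FPKM and 3 other treatments of the values; filled points passed an adjusted p of 0.05. EMB is above 0 in all 4, LDHB is below 0 in all 4, and LDHA runs from -0.13 to 0.14.

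EMB (ENSG00000170571, chr5:50396192-50443248, minus strand) encodes embigin, an immunoglobulin-family glycoprotein that carries MCT2 and can carry other transporters. It had 11.2, 11.3 and 11.9 FPKM in lactate replicates 1 to 3, against 9.66, 10.1 and 9.53 FPKM in untreated replicates 1 to 3. All lactate libraries lay above all untreated ones, and the gap between the groups exceeded the range within either. The log2 fold change was 0.22 (SE 0.034, limma adjusted p = 0.00132). It passed with read totals (0.28), after quantile normalization (0.23) and with any 1 library left out (0.19 to 0.24). It did not pass after the GC and length correction (0.064, limma adjusted p = 0.195). The EMB transcript has 37.0% GC, and in the fifth of tested genes with the lowest GC content (23.1% to 41.0%) the median log2 fold change was 0.15. Its pseudogene EMBP1 had 0.296 to 0.407 FPKM in lactate and 0.332 to 0.505 FPKM in untreated cells and could share some reads.

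BSG (ENSG00000172270, chr19:571277-583493, plus strand) encodes basigin (CD147), which also induces matrix metalloproteinases. It had 146, 152 and 149 FPKM in lactate replicates 1 to 3, against 157, 166 and 159 FPKM in untreated replicates 1 to 3. All lactate libraries lay below all untreated ones. The log2 fold change was -0.11 (SE 0.025, limma adjusted p = 0.00872). It did not pass with read totals (-0.037, limma adjusted p = 0.311) or after the GC and length correction (-0.0090, limma adjusted p = 0.653), and turned to 0.063 after quantile normalization (limma adjusted p = 0.0877). The BSG transcript has 61.6% GC, and the median log2 fold change was -0.098 among the fifth of tested genes richest in GC.

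BSG and EMB moved in opposite directions on the deposited scale, and their ratio within a library shows both at once. EMB made up 7.13%, 6.93% and 7.42% of the summed FPKM of BSG and EMB in lactate, against 5.79%, 5.73% and 5.66% in untreated cells. The difference was 1.43 percentage points and the groups did not overlap (exact two-sided permutation p = 0.1, the smallest possible with n = 3 each). This pair was chosen after its values had been looked at. After the GC and length correction the difference was 0.331 percentage points and the groups overlapped (exact two-sided permutation p = 0.2, n = 3 each).

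**Figure D3:**
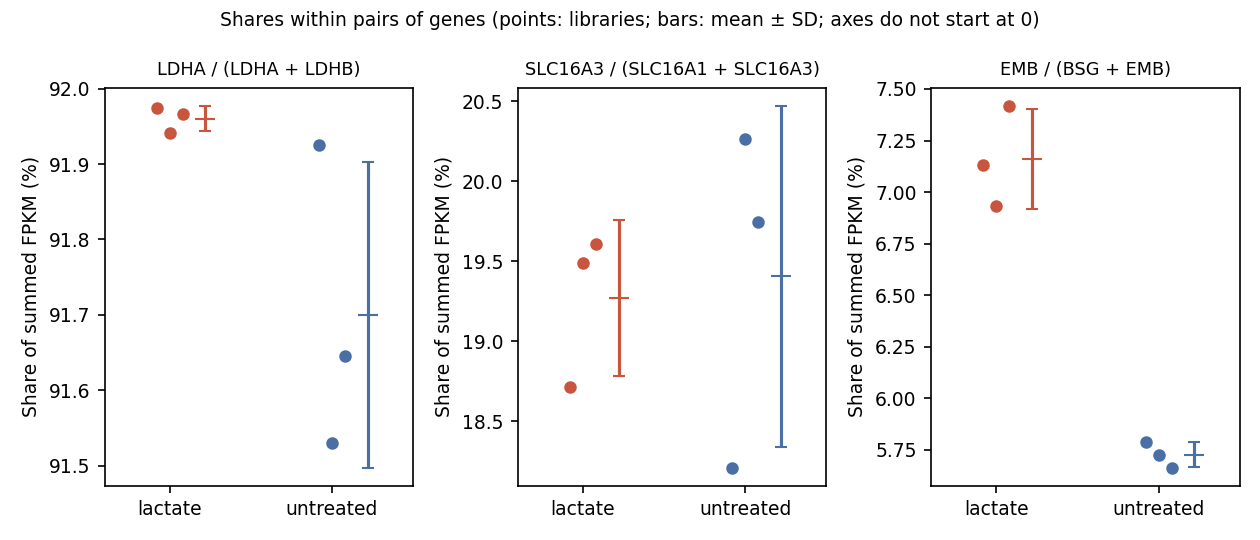
Share of the first gene in the summed FPKM of each pair (percent), per library, with mean ± SD beside the points (n = 3 each); lactate is left of untreated, and the axes do not start at 0. The EMB share is 6.93% or more in lactate and 5.79% or less in untreated cells, while the SLC16A3 shares of the groups overlap.

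HCAR1 (ENSG00000196917, chr12:122726076-122730843, minus strand), the G-protein-coupled receptor for lactate also known as GPR81, was at the detection limit. It had 1, 0 and 0 reads in lactate replicates 1 to 3, against 0, 0 and 3 reads in untreated replicates 1 to 3. A count of 0 allows up to 3 reads, which is 0.0156 to 0.0250 FPKM for this gene in these libraries, and no library exceeded that count. No fold is given, since both groups are at or under this limit. Of the other hydroxycarboxylate and proton-sensing receptors, HCAR2 alone reached the level for testing. HCAR2, the receptor for butyrate and niacin, fell to 1.71 ± 0.172 FPKM in lactate, against 2.33 ± 0.150 FPKM in untreated cells (SD, n = 3 each; log2 fold change -0.29, limma adjusted p = 0.00427), but did not pass after the GC and length correction (limma adjusted p = 0.0690). HCAR2 and HCAR3 are near-identical neighbours, so their reads may be split between them. HCAR3 had 0.299, 0.488 and 0.544 FPKM in lactate, against 0.722, 0.734 and 0.540 FPKM in untreated cells.

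**Figure D4:**
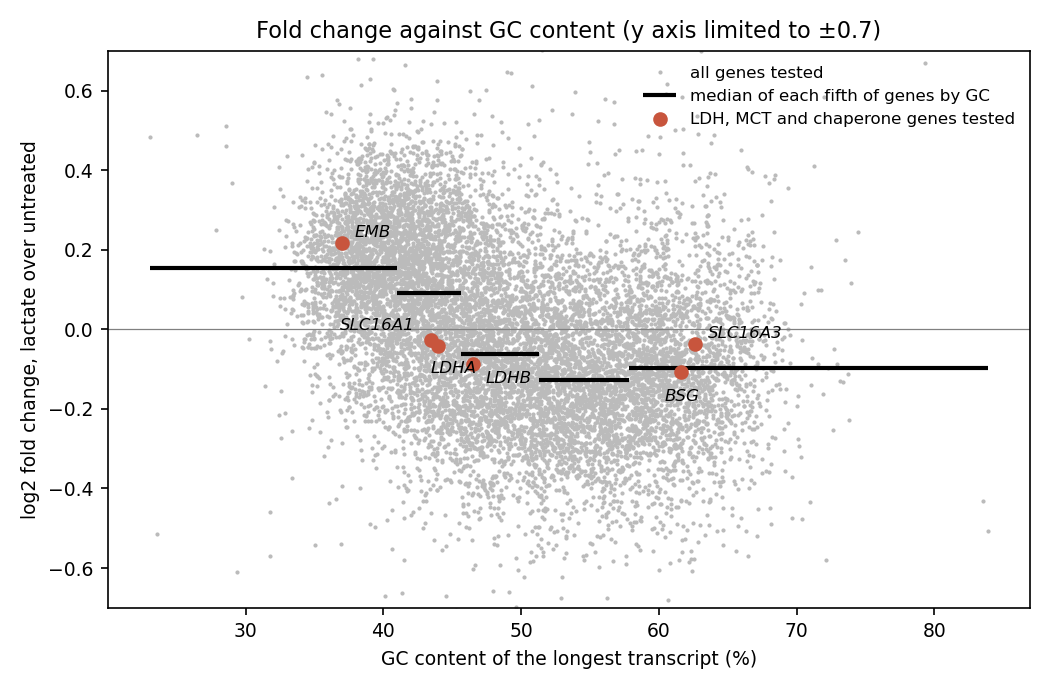
Log2 fold change of lactate over untreated against GC content of the longest transcript (percent), for all tested genes with a GC value (grey), with 54 genes beyond ±0.7 not drawn; black lines are medians of 5 classes of genes by GC and the red points the 6 tested genes described here. EMB (37.0% GC) lies near the median of the lowest class, 0.15, and BSG near that of the highest, -0.098, while LDHA and SLC16A1 lie below the median of their class, 0.092.

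The order of the levels was the same in both groups for the tested genes: LDHA, BSG, SLC16A1, LDHB, EMB, then SLC16A3. Neighbours in this order did not overlap in range in either group, although in untreated cells the lowest EMB value (9.53 FPKM) was close to the highest SLC16A3 value (9.31 FPKM). LDHD and LDHC overlapped in lactate, and LDHC and HCAR1 in untreated cells. The order also rests on the lengths used. The lengths recovered from the FPKM values were 6038 nt for LDHA and 9236 nt for SLC16A3, against longest annotated transcripts of 2416 and 4830 nt. Per kb of longest transcript, the SLC16A3 level averaged 16.6 FPKM in lactate, above EMB at 14.1 in lactate. On that scale LDHA averaged 692 FPKM in lactate and 712 FPKM in untreated cells.

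For each of the 6 genes the closest profiles over the 6 libraries were sought among 6305 other genes of at least 5 FPKM. Likeness was the root mean square distance of log2(FPKM + 1) values after removal of each gene's mean. CYCS, which encodes cytochrome c, was closest to LDHA (0.0058), followed by SLC44A2 (0.0076) and SF3A3 (0.0083). SELENOF (0.0074), SLC35E1 (0.0089) and MRFAP1 (0.0091) were closest to LDHB. PRNP (0.0078), NF2 (0.0085) and PCBP2 (0.0088) were closest to SLC16A1, and GFOD2 (0.013), LTBR (0.013) and TFCP2 (0.015) to SLC16A3. PACSIN3 (0.0087), LAP3 (0.0088) and PIGS (0.010) were closest to BSG. ZNF146 (0.016), CAMSAP2 (0.019) and FIGNL1 (0.021) were closest to EMB. With 2 groups and small changes many genes share such profiles, and the distances say only that.

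In the list of regulators known to act on LDHA, LDHB or MCT genes, 4 of 7 tested genes rose and 3 fell, where 27.7% and 30.9% of all tested genes did, with a median log2 fold change of 0.17. HIF1A, the oxygen-regulated subunit of the hypoxia-inducible factor, had 62.2 ± 1.65 FPKM in lactate and 50.6 ± 1.98 FPKM in untreated cells (log2 fold change 0.29, limma adjusted p = 0.000270). EPAS1, which encodes HIF-2 alpha, had 8.23 ± 0.187 FPKM in lactate and 6.14 ± 0.0436 FPKM in untreated cells (0.37). NFE2L2, the gene of NRF2, rose by 0.29. MYC fell to 24.5 ± 0.840 FPKM in lactate, against 28.8 ± 0.437 FPKM in untreated cells (SD, n = 3 each; -0.22). These 4, taken for the smallest p in the list, passed with the same sign under all 5 scalings tried on the same libraries. The sizes of HIF1A and MYC were smaller after the GC and length correction, at 0.15 and -0.092. HIF-alpha subunits are controlled mainly at the protein level, which was not measured.

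Partners of the chaperones also moved in both directions, with 2 of 5 tested genes higher and 2 lower, where 27.7% and 30.9% of all tested genes were. Their median log2 fold change was -0.034, which turned to 0.061 after quantile normalization and 0.034 with read totals. PPIA, the gene of cyclophilin A, an extracellular ligand of basigin, had 242 ± 1.65 FPKM in lactate and 317 ± 5.80 FPKM in untreated cells (log2 fold change -0.39, limma adjusted p = 1.23e-05). SLC3A2, the CD98 heavy chain that associates with basigin, fell by 0.38 on the log2 scale. CD44, a hyaluronan receptor that associates with basigin and MCTs, had 115, 113 and 115 FPKM in lactate replicates 1 to 3, against 90.0, 86.3 and 87.3 FPKM in untreated replicates 1 to 3 (0.38). ITGB1, the integrin beta-1 gene, had 19.2 ± 0.516 FPKM in lactate and 13.1 ± 0.158 FPKM in untreated cells (0.52; SD, n = 3 each). These 4, again taken for the smallest p in the list, also passed with 1 sign under all 5 scalings of the same libraries. PPIA and SLC3A2 were both at -0.21 after quantile normalization. PPIA has many processed pseudogenes that can share its reads. NPTN, the basigin relative neuroplastin, was not called (-0.034, limma adjusted p = 0.217).

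**Figure D5:**
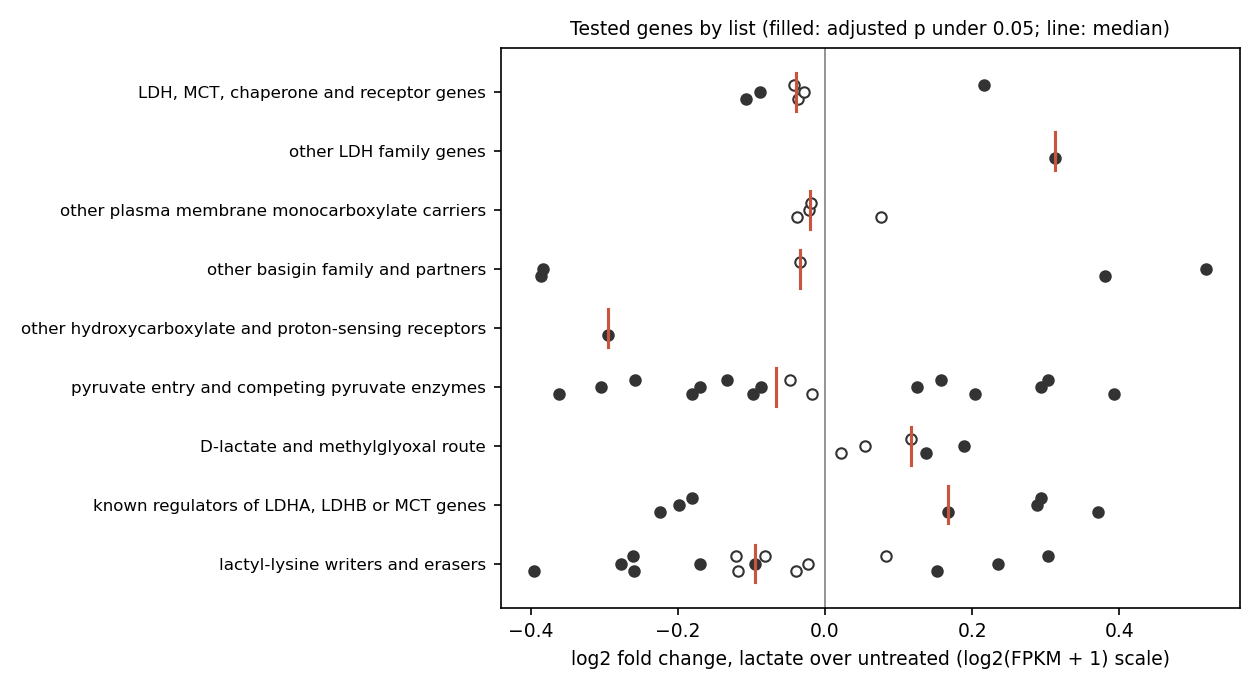
Log2 fold change of lactate over untreated for each tested gene, by gene list; filled points passed a limma adjusted p of 0.05 and the red line is the list's median. The LDH, MCT, chaperone and receptor genes lie between -0.11 and 0.22, while genes of the other lists reach -0.40 and 0.52.

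Of the enzymes that compete for pyruvate or admit it to mitochondria, 6 of 16 tested genes rose and 8 fell, where 27.7% and 30.9% of all tested genes did. Their median log2 fold change was -0.067, and -0.016 both with read totals and after the GC and length correction. After that correction 2 rose and 7 fell, and with read totals 6 rose and 5 fell. PKM, which encodes the pyruvate kinase that feeds LDHA in tumours, had 279 ± 0.797 FPKM in lactate and 345 ± 4.40 FPKM in untreated cells (log2 fold change -0.30, limma adjusted p = 1.36e-05). GPT2, the mitochondrial alanine aminotransferase, had 13.7, 13.9 and 13.7 FPKM in lactate replicates 1 to 3, against 17.6, 18.4 and 17.9 FPKM in untreated replicates 1 to 3 (-0.36). Among subunits of the pyruvate dehydrogenase complex, the E1 genes PDHA1 (-0.18, limma adjusted p = 0.000563) and PDHB (-0.17, limma adjusted p = 0.00519) fell. DLD, its E3 component, had 21.6 ± 0.496 FPKM in lactate and 16.2 ± 0.494 FPKM in untreated cells (0.39), and PDHX, its E3-binding protein, had 63.8 ± 2.26 FPKM in lactate and 51.5 ± 1.98 FPKM in untreated cells (0.30; SD, n = 3 each). PKM, GPT2, DLD and PDHX, taken for the smallest p in the list, passed with 1 sign under all 5 scalings of the same libraries. PKM was at -0.11 after quantile normalization and DLD at 0.25 after the GC and length correction.

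Of 13 other plasma membrane carriers of the SLC16 and SLC5 families, 4 were tested. None passed limma at an adjusted p under 0.05, where 58.6% of all tested genes did, or at an unadjusted p under 0.05. SLC16A9 stood at 5.20 ± 0.211 and 5.30 ± 0.321 FPKM, SLC16A13 at 4.22 ± 0.320 and 3.95 ± 0.216 FPKM, and SLC16A14 at 1.41 ± 0.0980 and 1.45 ± 0.170 FPKM, in lactate and in untreated cells in each case (SD, n = 3 each). After the GC and length correction SLC16A13 passed (log2 fold change 0.22, limma adjusted p = 0.00907). voom on recovered reads called 0 of these 4. With the minimum of 10 reads in 3 libraries it called 1 of 9 genes of this list, as higher, where 24.5% of all genes were. The sodium-coupled lactate transporter gene SLC5A12 was listed at 0 in 5 libraries, and SLC5A8 was not listed.

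Among the other members of the LDH family, UEVLD, which encodes a protein with a dehydrogenase-like domain, was the single gene tested. It rose to 4.97 ± 0.102 FPKM in lactate, against 3.81 ± 0.0210 FPKM in untreated cells (SD, n = 3 each; log2 fold change 0.31, limma adjusted p = 0.000149), and by 0.16 after the GC and length correction (limma adjusted p = 0.00525). LDHAL6A and LDHAL6B stayed at 0.0614 FPKM or less in every library, and the LDHA and LDHB pseudogenes LDHAP3, LDHAP7 and LDHBP1 held at most 6 reads in any library. On the methylglyoxal route, which yields D-lactate, GLO1 (glyoxalase I) had 116 ± 1.43 FPKM in lactate and 105 ± 1.12 FPKM in untreated cells (log2 fold change 0.14, limma adjusted p = 0.000530), with log2 fold changes of 0.058 after the GC and length correction and 0.30 after quantile normalization. HAGH, glyoxalase II, had 3.91 ± 0.0664 FPKM in lactate and 3.73 ± 0.117 FPKM in untreated cells and did not pass (SD, n = 3 each; limma adjusted p = 0.204). It passed with read totals (0.11) and after the GC and length correction (0.12). Its relative HAGHL had 2.43 ± 0.170 FPKM in lactate and 2.18 ± 0.489 FPKM in untreated cells (limma adjusted p = 0.372). Of the 5 genes on this list 2 rose, where 27.7% of all tested genes did. Besides GLO1 this was LACTB, a mitochondrial beta-lactamase-like protein outside the route. It had 6.09 ± 0.146 FPKM in lactate and 5.24 ± 0.489 FPKM in untreated cells, and did not pass after the GC and length correction (limma adjusted p = 0.144).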

How the data were processed

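Poly-A RNA was purified with oligo-dT beads from total RNA, per the labels' protocols. featureCounts 1.5.0-p3, StringTie 1.3.3b, HISAT2 2.0.5 and fastp are named, with build hg38, per the submitters' processing notes. Their roles, the annotation release and the use of strand are not stated. The deposited values are FPKM per gene and library. Low values were whole multiples of the worth of 1 read, so whole reads were recovered for all but 2 of 31368 genes with 1 length per gene (within 0.003 reads), which was the GENCODE 29 exon length for 16697. Coordinates, GC content (longest transcript) and exon overlaps come from GENCODE 29 on GRCh38.

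limma 3.58.1 (R 4.3.3) with trended, robust variance was fitted to log2(FPKM + 1), group as the only term; folds on this scale understate changes of low genes. ± is the SD. Shares were compared by exact permutation over 20 splits. Alternatives were quantile normalization, median centring, read totals, no variance trend, no filter, a filter at 5 FPKM, a pseudocount of 0.1, voom on recovered reads, the replicate number as a block, a correction of each library for GC content and length (residuals from natural splines, 4 degrees of freedom each), and each library left out. The 10 genes, the lists and the alternatives were chosen with earlier results of these data known. From each list the 4 tested genes with the smallest p were named, except 1 carrier gene that is not reported here, and the 3 closest profiles for each tested gene; NPTN, PDHA1, PDHB, HCAR3, SLC5A8, SLC5A12, LDHAL6A and LDHAL6B were named after their values were seen. Levels per longest transcript, the EMB share and voom with a minimum of 10 reads in 3 libraries were also added after seeing the data. On simulated libraries of the same depth, the test found 14% of 50 genes changed 1.1-fold, 54% at 1.2-fold and 90% at 1.5-fold. In that simulation 11384 of 11584 tested genes were unchanged, unlike in the data. Other steps used matplotlib 3.10.9, scipy 1.17.1 and pandas 2.3.3 in Python 3.11.15.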

Additional observations from a re-analysis of the deposited data

How the results depend on the processing

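The number of the 10 genes called higher was 1 by limma. It became 3 after quantile normalization (28.4% of all genes called higher) and 0 after the GC and length correction, with or without the replicate block (22.9% and 22.6%). The number called lower was 2, and became 0 after quantile normalization (27.2%) and with read totals (21.9%). It was 3 after median centring (34.4%) and in voom (32.8%). After the GC and length correction (25.7%) it stayed at 2, but these were LDHA and SLC16A1 in place of BSG and LDHB. Leaving out 1 library kept the counts at 1 and 2. Signs turned for LDHA (0.14 after quantile normalization, 0.028 with read totals), SLC16A1 (0.066 and 0.040), SLC16A3 (0.027 with read totals) and BSG (0.063 after quantile normalization). The cause was not tested. The LDHA share differed by -0.402 percentage points and the SLC16A3 share by 1.07 after the GC and length correction; without 1 library they ranged over 0.175 to 0.372 and over -0.734 to 0.292, and the EMB share over 1.31 to 1.55. The SLC16A3 share turned sign without lactate replicate 1 (0.142), untreated replicate 2 (0.292) or untreated replicate 3 (0.033). Whether the replicate numbers pair the samples was not settled. Deviations from group means of same-numbered libraries correlated at 0.053, 0.067 and -0.0038 over 11792 genes. Those of differently numbered libraries correlated at -0.071 to 0.022. Such small values cannot decide whether the samples were paired. With the replicate block 3 genes were called lower, LDHA included (-0.042, limma adjusted p = 0.0150), and LDHA was also called in voom (limma adjusted p = 0.0131) and after median centring (-0.063, limma adjusted p = 0.0342). For the shares, permuting within replicate blocks gave exact two-sided p = 0.25, the smallest that 3 pairs allow, for LDHA (difference 0.260 percentage points), 0.75 for SLC16A3 (-0.136) and 0.25 for EMB (1.43). Changes of 1.1-fold were mostly missed in simulated libraries of this depth. In them 11384 of 11584 genes were unchanged, while 58.6% of genes were called in the data. The share found there is therefore not that of the test here. Uncalled genes are not shown to be unchanged.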

Other observations

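Lysine lactylation uses lactate as the source of its acyl group, and the list of its reported writers and erasers had 15 tested genes, of which 3 rose and 6 fell, where 27.7% and 30.9% of all tested genes did. The median log2 fold change was -0.095, against -0.016 over all genes tested, but -0.034 with read totals and -0.021 after the GC and length correction. After that correction 2 rose and 5 fell. KAT2A, which encodes the acetyltransferase GCN5, had 8.43 ± 0.00681 FPKM in lactate and 11.4 ± 0.369 FPKM in untreated cells (log2 fold change -0.40, limma adjusted p = 5.21e-05). AARS1, the alanyl-tRNA synthetase reported to act as a lactyltransferase, had 64.4 ± 0.152 FPKM in lactate and 78.3 ± 1.06 FPKM in untreated cells (-0.28). The class I deacetylases HDAC1 and HDAC2 moved in opposite directions. HDAC1 had 65.0 ± 1.23 FPKM in lactate and 78.1 ± 1.72 FPKM in untreated cells (-0.26), and HDAC2 had 10.2 ± 0.257 FPKM in lactate and 8.10 ± 0.0286 FPKM in untreated cells (0.30; SD, n = 3 each). These 4, taken for the smallest p in the list, passed with the same sign under all 5 scalings of the same 6 libraries. HDAC2 was at 0.085 after the GC and length correction (limma adjusted p = 0.0326). HDAC1 and AARS1 were at -0.12 and -0.14 after quantile normalization. Lactylation itself was not measured in these libraries.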
